A study of Rattus norvegicus with 12 samples.

Results

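A set of 10 genes of the circadian clock was followed through the RNA-seq libraries of cultured neonatal rat ventricular myocytes (NRVMs): Arntl, Clock, Per1, Per2, Per3, Cry1, Cry2, Nr1d1, Nr1d2 and Dbp. They were chosen by gene symbol, as 10 of the 18469 genes in the deposited tables, and all 10 had enough counts to be tested in every comparison. NRVMs are heart muscle cells isolated from the ventricles of newborn rats, here Sprague-Dawley rats, and separated from fibroblasts before culture. There were 12 libraries in 4 groups of 3, described as biological replicates. All cells were transfected with an siRNA, either the negative control (siNeg) or one against Slc25a26 (siSlc25a26), a mitochondrial carrier of S-adenosylmethionine. In the groups siNeg.PE and siSlc25a26.PE, phenylephrine (PE), an α1-adrenergic agonist that makes cardiomyocytes grow, was added 12 h after transfection for 36 h. The siNeg and siSlc25a26 groups received no PE. The culture keeps some other cells of the heart, as the marker genes given further on show.

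The clock is a loop of transcription and translation that runs in nearly every cell, heart muscle cells included. CLOCK and BMAL1 (the product of Arntl) bind E-boxes together and switch on the Per and Cry genes, whose proteins return to the nucleus and block that pair. The same pair switches on Nr1d1 and Nr1d2, whose products, the REV-ERB nuclear receptors, bind ROR elements and repress Arntl. Dbp is an output of the loop, a transcription factor that acts on D-boxes. In a running clock Arntl and Dbp peak at roughly opposite times of day. The labels give 1 treatment time and no time series, so that a changed level and a shifted phase cannot be told apart in any of these genes.

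The stretches before the annotated starts of 3 members are shown because each holds at least 1 of the short elements through which the loop acts. They are the 250 bases upstream of the start, read 5′ to 3′ on the gene's strand, from RefSeq on the GRCr8 assembly. Capitals mark the matched elements: a ROR element (TNGGTCA) before Arntl, which RefSeq lists as Bmal1, at chr1:176766078-176766327 on the plus strand; a D-box (TTANGTAA) and an E-box variant (CACGTT) before Per2 at chr9:99496994-99497243 on the minus strand; and an E-box variant, here read on the other strand as its complement, and an E-box (CACGTG) before the 2 annotated starts of Nr1d1, at chr10:84231813-84232062 and chr10:84229455-84229704 on the minus strand.
Arntl: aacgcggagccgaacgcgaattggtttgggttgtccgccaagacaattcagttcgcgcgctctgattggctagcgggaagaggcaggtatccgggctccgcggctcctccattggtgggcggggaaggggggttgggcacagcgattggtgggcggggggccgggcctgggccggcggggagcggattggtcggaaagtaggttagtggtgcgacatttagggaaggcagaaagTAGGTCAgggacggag
Per2: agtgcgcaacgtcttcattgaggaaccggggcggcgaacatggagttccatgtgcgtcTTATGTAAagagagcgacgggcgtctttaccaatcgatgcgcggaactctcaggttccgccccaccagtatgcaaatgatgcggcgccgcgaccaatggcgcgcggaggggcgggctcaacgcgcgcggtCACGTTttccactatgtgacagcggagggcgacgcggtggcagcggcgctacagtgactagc
Nr1d1, start 1: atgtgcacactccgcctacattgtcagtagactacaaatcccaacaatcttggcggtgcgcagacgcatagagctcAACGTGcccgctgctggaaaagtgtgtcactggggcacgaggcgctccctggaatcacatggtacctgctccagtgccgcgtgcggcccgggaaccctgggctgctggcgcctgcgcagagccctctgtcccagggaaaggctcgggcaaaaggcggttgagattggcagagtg
Nr1d1, start 2: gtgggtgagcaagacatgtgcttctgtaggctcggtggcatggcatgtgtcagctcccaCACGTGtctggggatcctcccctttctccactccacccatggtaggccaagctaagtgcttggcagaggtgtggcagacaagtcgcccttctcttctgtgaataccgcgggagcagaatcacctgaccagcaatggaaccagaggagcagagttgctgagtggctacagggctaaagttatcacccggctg
Each motif was searched on both strands in 11 entries for 9 members. The ROR element lay 16 bases upstream of the Arntl start. In Per2 the D-box lay 192 bases and the E-box variant 62 bases upstream of the start, and the E-box of Nr1d1 lay 191 bases upstream of start 2. Cry2 also held the E-box variant, 212 bases upstream. The windows of Clock, Per1, Per3, Nr1d2 and Dbp held none of these letters, and no member's window held the cAMP response element (TGACGTCA). Of 33469 windows of the same length, 5.59% held the E-box, 4.07% its variant, 2.04% the D-box, 9.47% the ROR element and 1.59% the cAMP response element. A match is a string of letters and not a measured binding site.

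Levels are given as CPM, counts scaled to the library total after TMM normalisation. Where genes are set against each other they are given as FPKM, which also divides by gene length. Library totals lay between 24770972 and 28709049 counts, and 3 counts, the smallest level taken as detected, correspond to 0.0993 to 0.12 CPM, far under the level of every member. Slc25a26 itself was 31.4 ± 2.0 CPM (SD, n = 3, as for every mean ± SD given here) in siNeg and 15.1 ± 0.612 in siSlc25a26, a log2 fold change of -1.08 (adjusted p = 1.08e-05). It was 102 ± 14.1 CPM in siNeg.PE and 102 ± 3.69 in siSlc25a26.PE, a log2 fold change of -0.01 (adjusted p = 0.969). The target was thus not lower in the libraries labelled siSlc25a26.PE, and every result that uses them holds for libraries of that label only. Nppa, the natriuretic peptide gene that PE is known to raise, went from a mean of 120 to 3000 CPM with PE in siNeg. The labels name no sequencing batch.

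PE changed the expression of 5 clock genes in each siRNA background. In siNeg, Clock and Per2 rose and Per3, Nr1d1 and Dbp fell. In siSlc25a26, Clock and Per2 rose and Per3, Nr1d2 and Dbp fell. The siRNA changed fewer: without PE Clock was higher and Per3 lower in siSlc25a26 than in siNeg, and under PE Nr1d1 was higher and Per3 lower. Calls needed both a fold change over 1.5 (0.585 on the log2 scale) and an adjusted p under 0.05 in edgeR's quasi-likelihood test. The adjustment ran over all genes tested, and every adjusted p given here is from that test.

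For PE in siNeg, 2 of 10 members were called higher and 3 lower, beside 12.4% and 8.24% of 13719 genes tested. For PE in siSlc25a26 the counts were again 2 and 3, beside 10.1% and 10.4% of 13776 genes. For siSlc25a26 without PE they were 1 and 1, beside 8.92% and 7.20% of 13829 genes, which for 10 members is close to the background. For siSlc25a26 under PE they were 1 and 1, beside 7.71% and 8.10% of 13671 genes, again close to it. Among 10 genes, 1 call is 10% of the members. The median log2 fold change of the members was -0.33 for PE in siNeg, against 0.0 over all genes tested. It was -0.09 for PE in siSlc25a26, 0.08 for siSlc25a26 without PE and 0.21 for siSlc25a26 under PE, against -0.0, 0.01 and -0.0 over all genes. Each PE comparison shares a group of libraries with each siRNA comparison, so that their values are only set side by side and do not count as repeats. The 2 PE comparisons share no library with each other, nor do the 2 siRNA comparisons.

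**Figure D1:**
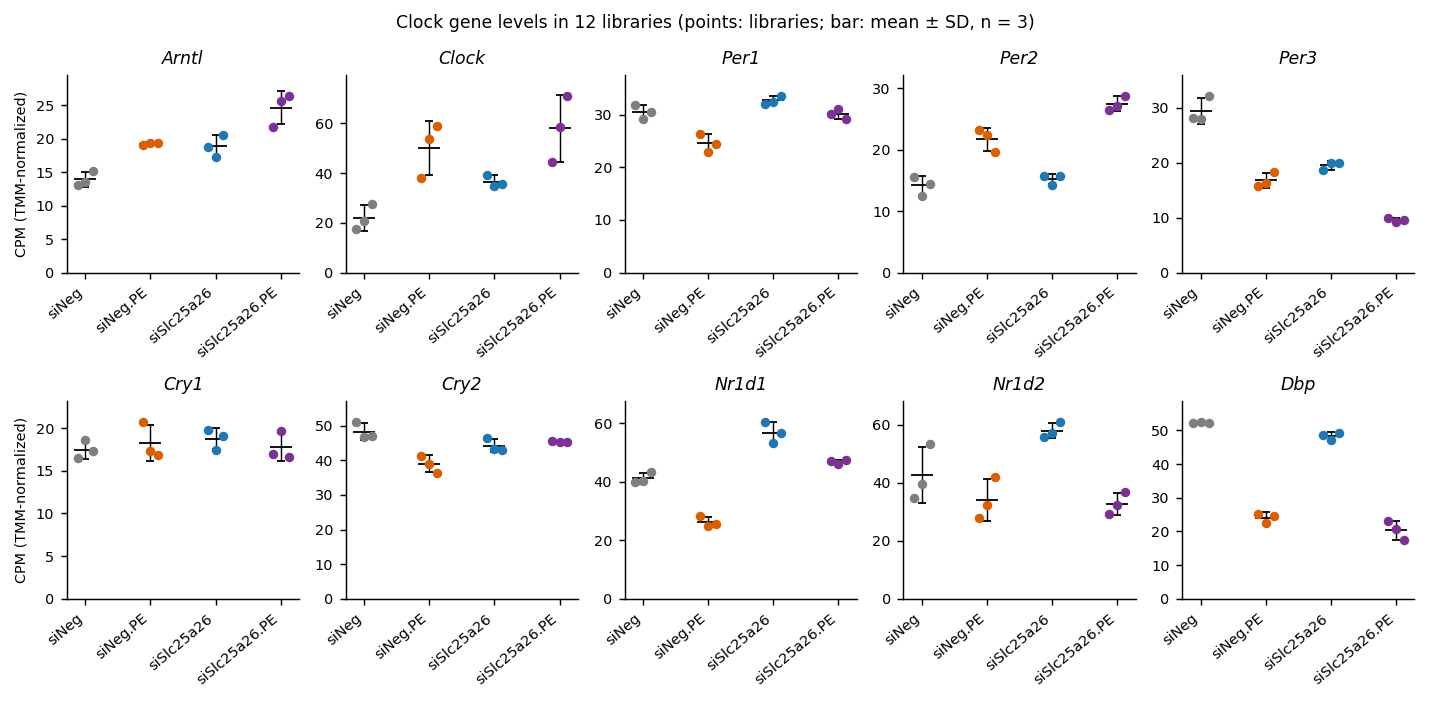
TMM-normalised level in CPM (vertical axes, starting at 0) of the 10 clock genes in the 4 groups. Points are libraries and bars the mean ± SD (n = 3). Dbp lies between 17.5 and 25.3 CPM in the 6 PE libraries and between 47.1 and 52.5 in the other 6, while the Cry1 libraries of all groups lie between 16.5 and 20.7.

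Clock and Arntl encode the activating pair of the loop. Clock was 17.6, 20.6 and 27.7 CPM in the siNeg libraries and 38.1, 53.7 and 58.8 in siNeg.PE. It was 39.4, 34.9 and 35.5 CPM in siSlc25a26 and 44.4, 58.5 and 71.1 in siSlc25a26.PE. All 3 siNeg libraries lay below every other library, and the spread was wide, with replicate 3 the highest and replicate 1 the lowest in 3 of the 4 groups. Clock rose 2.27-fold with PE in siNeg (log2 fold change 1.18, SE 0.199, adjusted p = 0.0019) and 1.6-fold with PE in siSlc25a26 (0.68, SE 0.149, adjusted p = 0.00461). It was 1.64-fold higher in siSlc25a26 than in siNeg without PE (0.71, SE 0.143, adjusted p = 0.00375). Under PE the groups overlapped, at 0.2 (SE 0.188, adjusted p = 0.422). The call in siSlc25a26 did not hold without siSlc25a26.PE replicate 3, where the log2 fold change was 0.5, or in limma on log2(FPKM + 1) and log2(FPKM + 0.1), at 0.39 and 0.46. That without PE did not hold without siNeg replicate 1, where it was 0.57.

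The groups stood in the same order for Arntl, within narrower limits. It was 13.1, 13.5 and 15.1 CPM in siNeg, 19.0, 19.4 and 19.3 in siNeg.PE, 18.7, 17.3 and 20.6 in siSlc25a26, and 21.8, 25.6 and 26.4 in siSlc25a26.PE. The siNeg libraries were the lowest and those labelled siSlc25a26.PE the highest, and only siNeg.PE and siSlc25a26 overlapped. In the main fit the adjusted p was under 0.05 in all 4 comparisons, with each fold change short of 1.5. The log2 fold change was 0.46 for PE in siNeg (SE 0.0844, adjusted p = 0.00299) and 0.39 for PE in siSlc25a26 (SE 0.0984, adjusted p = 0.00873). It was 0.42 for siSlc25a26 without PE (SE 0.0946, adjusted p = 0.00702) and 0.35 under PE (SE 0.0921, adjusted p = 0.0156). Under PE the adjusted p was over 0.05 in 3 of 6 fits that left out 1 library, up to 0.0608, and in 2 of 9 other settings. For PE in siSlc25a26 it was over 0.05 in 2 of 9 other settings. Over the 4 groups, the genes whose mean log2 CPM lay closest to that of Arntl, each gene centred on its own mean, were Naa50, Dnajc3 and Psma4, with root-mean-square distances of 0.0127, 0.0153 and 0.0191.

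The 3 Period genes encode repressors of the pair, and their levels went different ways. Per2 was 15.6, 12.5 and 14.5 CPM in siNeg and 23.2, 22.4 and 19.6 in siNeg.PE. It was 15.7, 14.3 and 15.8 CPM in siSlc25a26 and 26.5, 27.2 and 28.8 in siSlc25a26.PE. Every PE library lay above every library without PE, and the 2 groups without PE overlapped. Per2 rose 1.81-fold with PE in siSlc25a26 (log2 fold change 0.86, SE 0.0755, adjusted p = 2.23e-05). In siNeg it rose 1.52-fold (0.6, SE 0.105, adjusted p = 0.00233), just past the threshold. That call was lost without siNeg replicate 2, at 0.52, and without siNeg.PE replicate 1, at 0.56. In limma on log2(FPKM + 1) Per2 was inside 1.5-fold for PE in both backgrounds, at 0.43 and 0.53, and on log2(FPKM + 0.1) in siNeg, at 0.55. Between siRNAs the log2 fold change was 0.08 without PE (SE 0.0984, adjusted p = 0.538) and 0.33 under PE (SE 0.0902, adjusted p = 0.018), the latter inside 1.5-fold. In 2 of 6 fits leaving out a single library, the adjusted p for siSlc25a26 under PE was over its threshold, up to 0.0592. The same held in 2 of 9 other settings, up to 0.0822.

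Per3 was the only member called in all 4 comparisons, each time lower. It was 28.1, 28.0 and 32.2 CPM in siNeg, 15.8, 16.3 and 18.3 in siNeg.PE, 18.6, 20 and 20 in siSlc25a26, and 9.87, 9.22 and 9.62 in siSlc25a26.PE. No 2 groups overlapped, with siNeg the highest and the libraries labelled siSlc25a26.PE the lowest. Per3 fell 1.77-fold with PE in siNeg (log2 fold change -0.82, SE 0.0939, adjusted p = 0.000306) and 2.03-fold with PE in siSlc25a26 (-1.02, SE 0.0788, adjusted p = 1.01e-05). It was 1.77-fold lower in siSlc25a26.PE than in siNeg.PE (-0.82, SE 0.0932, adjusted p = 0.000203). Without PE it was 1.53-fold lower in siSlc25a26 (-0.62, SE 0.0793, adjusted p = 0.000334). That last call sat at the threshold and was lost without siNeg replicate 3 (-0.57) or siSlc25a26 replicate 1 (-0.58), and in limma on log2(FPKM + 1) (-0.53).

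Per1 stayed within 1.5-fold throughout. It was 31.9, 29.1 and 30.6 CPM in siNeg, 26.3, 22.9 and 24.5 in siNeg.PE, 32.1, 32.5 and 33.6 in siSlc25a26, and 30.2, 31.0 and 29.1 in siSlc25a26.PE. The siNeg.PE libraries were the lowest and did not overlap with any other group. The log2 fold change was -0.33 for PE in siNeg (SE 0.0765, adjusted p = 0.00861) and 0.28 for siSlc25a26 under PE (SE 0.0796, adjusted p = 0.0198). For PE in siSlc25a26 it was -0.11 (adjusted p = 0.154), and for siSlc25a26 without PE 0.07 (adjusted p = 0.375). In 3 of 6 fits leaving out a single library, the adjusted p for siSlc25a26 under PE was over its threshold, up to 0.0904. The same held in 2 of 9 other settings, up to 0.0732.

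The Cryptochromes Cry1 and Cry2, the partners of the PER proteins, were not called in any comparison. Cry1 was 16.5, 18.6 and 17.3 CPM in siNeg, 20.7, 17.3 and 16.8 in siNeg.PE, 19.8, 17.4 and 19.1 in siSlc25a26, and 17.0, 19.6 and 16.6 in siSlc25a26.PE. The groups overlapped in all 4 comparisons. The fitted log2 fold change lay between -0.07 and 0.08, and the widest interval of 2 SE either side, for siSlc25a26 under PE, ran from -0.28 to 0.17. All of these intervals lay inside 1.5-fold. Cry2 was 51.0, 46.8 and 47.0 CPM in siNeg, 41.3, 39.0 and 36.4 in siNeg.PE, 46.4, 43.3 and 43.0 in siSlc25a26, and 45.5, 45.3 and 45.3 in siSlc25a26.PE. As with Per1, the siNeg.PE libraries were the lowest and apart from the rest. The log2 fold change of Cry2 was -0.33 for PE in siNeg (SE 0.0689, adjusted p = 0.00555) and 0.05 for PE in siSlc25a26 (adjusted p = 0.518). It was -0.15 for siSlc25a26 without PE (adjusted p = 0.0705) and 0.21 under PE (adjusted p = 0.0439), none past 1.5-fold. Under PE its adjusted p was over 0.05 in 5 of 6 fits that left out 1 library, up to 0.142, and in 5 of 9 other settings.

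Nr1d1 and Nr1d2 encode REV-ERBα and REV-ERBβ. Nr1d1 was 39.9, 40.3 and 43.3 CPM in siNeg and 28.3, 25 and 25.7 in siNeg.PE. It was 60.4, 53.2 and 56.6 CPM in siSlc25a26 and 47.0, 46.0 and 47.4 in siSlc25a26.PE. No 2 groups overlapped, and siSlc25a26 was the highest and siNeg.PE the lowest. Nr1d1 fell 1.58-fold with PE in siNeg (log2 fold change -0.66, SE 0.0706, adjusted p = 0.000229). With PE in siSlc25a26 the value was -0.27 (SE 0.0632, adjusted p = 0.00667), inside 1.5-fold. Nr1d1 was 1.77-fold higher in siSlc25a26.PE than in siNeg.PE (0.82, SE 0.0759, adjusted p = 6e-05), and 1.35-fold above siNeg in siSlc25a26 without PE, which is inside the threshold (0.44, SE 0.0646, adjusted p = 0.000734). In RefSeq, Nr1d1 overlaps Thra, a thyroid hormone receptor gene. Without strand information, which the sources used here do not give, reads in the overlap cannot be assigned to 1 of them. Thra was 197, 153, 158 and 115 CPM on average in siNeg, siNeg.PE, siSlc25a26 and siSlc25a26.PE, and was not called in any of the 4 comparisons. Its log2 fold change was -0.38 for PE in siNeg (adjusted p = 0.0012) and -0.44 for PE in siSlc25a26 (adjusted p = 0.00143), the same direction as Nr1d1. For siSlc25a26 it was -0.34 without PE and -0.42 under PE, opposite in sign to that of Nr1d1. The part of shared reads in the Nr1d1 values was not tested.

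Nr1d2 was 34.8, 39.7 and 53.4 CPM in siNeg and 27.8, 32.4 and 42.1 in siNeg.PE. It was 56.0, 57.1 and 61.0 CPM in siSlc25a26 and 29.2, 32.3 and 36.7 in siSlc25a26.PE. The siSlc25a26 libraries were the highest, and the other groups overlapped with a neighbour in level. As with Clock, replicate 3 was the highest and replicate 1 the lowest in siNeg, siNeg.PE and siSlc25a26.PE. Nr1d2 fell 1.76-fold with PE in siSlc25a26 (log2 fold change -0.82, SE 0.0887, adjusted p = 8.1e-05). With PE in siNeg it was -0.33 (SE 0.188, adjusted p = 0.175, interval of 2 SE either side from -0.71 to 0.05), which does not show that PE left it alone. For siSlc25a26 it was 0.42 without PE (SE 0.131, adjusted p = 0.0279), inside 1.5-fold, and -0.07 under PE (SE 0.145, adjusted p = 0.747). Without siNeg replicate 3, the value without PE was 0.59 and past the threshold. In the other 5 of the 6 fits that left out 1 library, its adjusted p was over 0.05, up to 0.0847.

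Dbp, the output factor, separated the libraries by PE. It was 52.1, 52.5 and 52.2 CPM in siNeg and 25.3, 22.4 and 24.7 in siNeg.PE. It was 48.8, 47.1 and 49.1 CPM in siSlc25a26 and 23.1, 20.6 and 17.5 in siSlc25a26.PE. All 6 libraries without PE lay above all 6 PE libraries, and the 2 PE groups overlapped. Dbp fell 2.19-fold with PE in siNeg (log2 fold change -1.13, SE 0.0681, adjusted p = 1.77e-05) and 2.35-fold in siSlc25a26 (-1.24, SE 0.0928, adjusted p = 8.57e-06). Between siRNAs the value was -0.14 without PE (adjusted p = 0.0519) and -0.25 under PE (adjusted p = 0.0947), neither called. The genes closest to Dbp over the 4 group means were Chadl, Epha4 and Tcp11l2, with distances of 0.0422, 0.0509 and 0.0523.

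**Figure D2:**
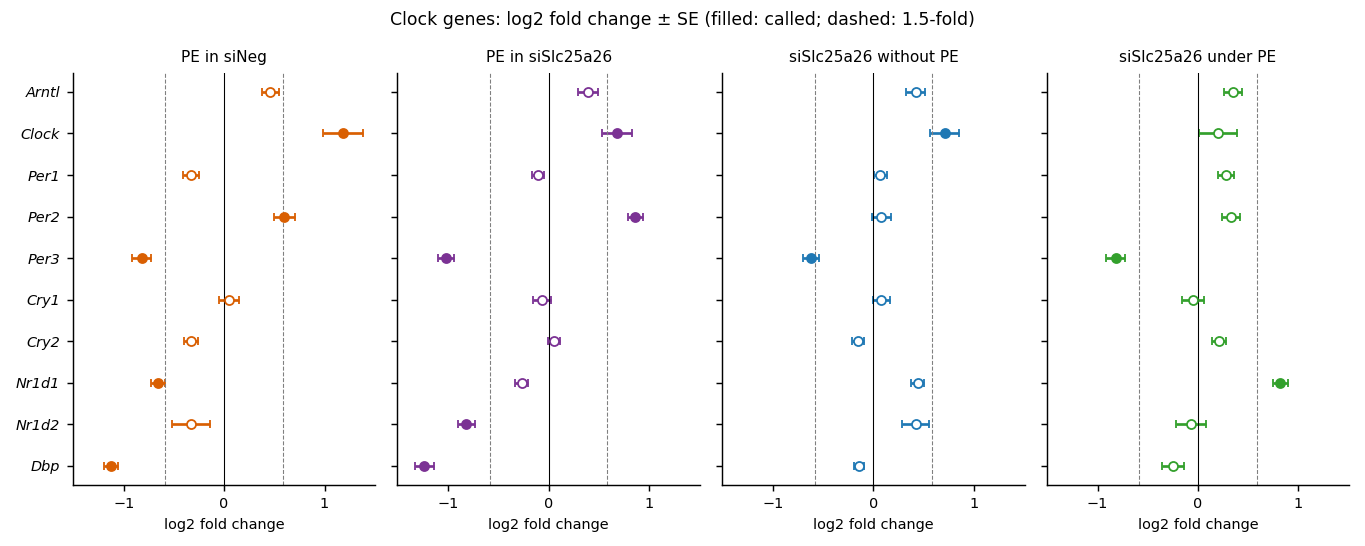
Log2 fold change ± SE of the 10 clock genes in each comparison, with filled points for called genes and dashed lines at 1.5-fold. Per3 lies on the lower side in all 4 comparisons, at -0.62 to -1.02, and Dbp past the line in the 2 PE comparisons only, at -1.13 and -1.24.

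Whether the PE effect differed between the siRNAs was tested as the difference of the 2 effects over all 12 libraries. None of the 10 members was called, beside 2.16% of 14097 genes higher and 3.34% lower. At an unadjusted p under 0.05 there were 3 members (Cry2, Nr1d1 and Nr1d2), and DESeq2 and limma-voom also called 0. Cry2 and Nr1d1 had an adjusted p under 0.05 with a difference inside 1.5-fold. For Clock the difference was -0.53 (SE 0.275, adjusted p = 0.245), with an interval of 2 SE either side from -1.08 to 0.02. For Nr1d2 it was -0.5 (SE 0.227, adjusted p = 0.179), and without siNeg replicate 3 it was -0.7 and called. For Dbp it was -0.13 (SE 0.12, adjusted p = 0.531), with an interval from -0.37 to 0.11. Thus the loss of a call in 1 background, as for Nr1d1 or Nr1d2, is not by itself a called difference between them.

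Per unit length, Dbp was the most abundant member in siNeg, at 35.8 ± 0.508 FPKM, followed by Nr1d1 at 18.7 and Cry2 at 12.8. Nr1d2, Per3, Per1, Cry1 and Arntl followed, at 9.65, 8.17, 7.03, 6.43 and 5.12 FPKM. Per2 and Clock were the lowest, at 2.54 and 2.37. In the libraries labelled siSlc25a26.PE, Nr1d1 led at 19.4 FPKM and Dbp was 12.6 ± 1.48, while Per3, at 2.32, was the lowest of the 10. The ratio of Dbp to Arntl in FPKM, an output and an activator, was taken in each library as a description. It was 7.43, 7.23 and 6.41 in siNeg, 4.79, 4.98 and 4.55 in siSlc25a26, 2.58, 2.15 and 2.47 in siNeg.PE, and 1.9, 1.51 and 1.21 in siSlc25a26.PE. No 2 groups overlapped. The ratio of Nr1d1 to Arntl was 3.65 ± 0.0806 in siNeg and 3.67 ± 0.273 in siSlc25a26. It was 1.68 ± 0.136 in siNeg.PE and 2.34 ± 0.254 in siSlc25a26.PE, so that PE groups lay lower in both backgrounds.

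**Figure D3:**
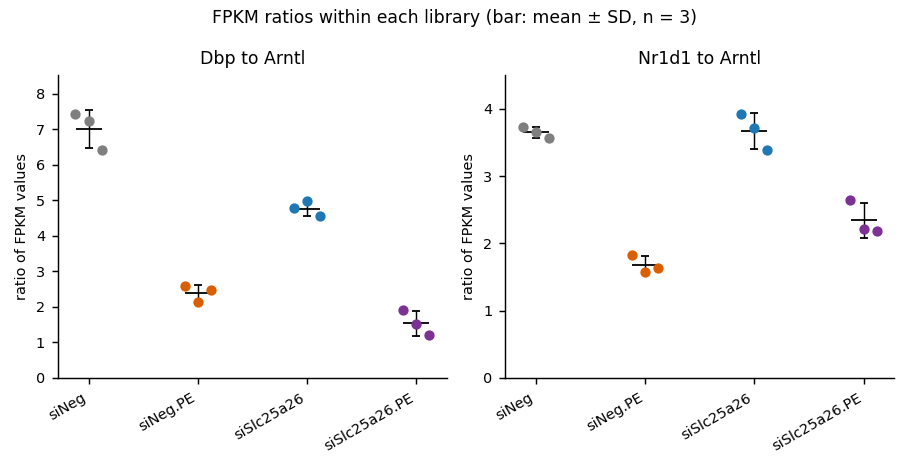
Ratio of FPKM values, Dbp to Arntl and Nr1d1 to Arntl, in each library (points) with the mean ± SD (n = 3) by group. The ratio of Dbp to Arntl is highest in siNeg, at 6.41 to 7.43, and lowest in siSlc25a26.PE, at 1.21 to 1.9.

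The marker genes of other cells of the heart differed between the same groups. The summed level of 10 fibroblast markers was 25200 to 27900 CPM in siNeg, 13500 to 14000 in siNeg.PE, 14700 to 16700 in siSlc25a26 and 10500 to 11600 in siSlc25a26.PE. For PE in siNeg 5 of the 10 were called lower, while 2 others rose with an adjusted p under 0.05 inside 1.5-fold. For siSlc25a26 without PE 6 of 10 were called lower, while 1 other fell and 1 rose in that way. For PE in siSlc25a26 it was 1 of 10 called lower, while 4 others fell and 1 rose in that way. Under PE 3 were called lower and 1 higher, and 4 others fell in that way. The sum of 8 immune markers was 111 to 133 CPM in siNeg, 61.1 to 70.3 in siNeg.PE, 60.2 to 69.8 in siSlc25a26 and 42.3 to 50.1 in siSlc25a26.PE. Among the immune markers, 6 were called lower for PE in siNeg, 1 for PE in siSlc25a26, 5 for siSlc25a26 without PE and 1 under PE. Over all genes tested, 8.24%, 10.4%, 7.20% and 8.10% were called lower in these 4 comparisons, in that order. The shares called higher were 12.4%, 10.1%, 8.92% and 7.71%. The 5 smooth muscle markers summed to 1540 to 1730, 798 to 942, 832 to 935 and 810 to 817 CPM in the 4 groups. They did not move together: 2 were called higher and 3 lower for PE in siNeg, and 2 higher and 1 lower for PE in siSlc25a26. For siSlc25a26, 3 were called lower without PE and 3 under PE. The 8 endothelial markers summed to between 26.5 and 33.7 CPM in every library. No marker in these lists was at or under 3 counts in every library. The 10 cardiomyocyte markers, which check the label of the cells, summed to 31100 to 33300 CPM in siNeg, 42500 to 43800 in siNeg.PE, 30500 to 34900 in siSlc25a26 and 47900 to 51700 in siSlc25a26.PE. In bulk RNA, fewer cells of a type and less RNA per cell cannot be told apart, and the part of these shifts in the clock gene values was not tested.

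Interferon response genes were high with the Slc25a26 siRNA. Of the 10 listed, such as Isg15 and Mx1, 9 of 9 tested were called higher in siSlc25a26 without PE, and 9 of 10 under PE. The exception was Ifit1, which had too few counts to be tested without PE and was not called under PE. Over all genes tested, 8.92% were called higher without PE and 7.71% under PE. The summed level of the 10 interferon genes was 186 to 214 CPM in siNeg and 133 to 147 in siNeg.PE, but 7380 to 8050 in siSlc25a26 and 4400 to 4870 in siSlc25a26.PE. Its part in the siSlc25a26 comparisons of Clock, Per3 and Nr1d1 was not tested.

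Around the core loop stand regulators that tune it and outputs that it drives in the heart. Of 19 regulators, 1 of 18 tested was called for PE in siNeg (Ciart, lower) and 1 of 19 for PE in siSlc25a26 (Bhlhe41, lower). For siSlc25a26, 2 of 18 were called without PE, both higher, among them Bhlhe41. Under PE 1 of 18 was higher (Ciart) and 1 lower (Fbxl21, a gene named after its values were seen). Over all genes tested, 12.4%, 10.1%, 8.92% and 7.71% were called higher in the 4 comparisons, and 8.24%, 10.4%, 7.20% and 8.10% lower. The median log2 fold change of the regulators was 0.08, 0.11, 0.16 and 0.04 in the 4 comparisons, against 0.0, -0.0, 0.01 and -0.0 over all genes tested.

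Bhlhe41 encodes DEC2, a repressor that competes at E-boxes. It was 47.6, 44.9 and 44.2 CPM in siNeg, 37.8, 40.1 and 40.2 in siNeg.PE, 85.8, 92.2 and 71.7 in siSlc25a26, and 48.6, 46.4 and 45.6 in siSlc25a26.PE. The siSlc25a26 libraries stood above all others. It was higher in siSlc25a26 without PE (log2 fold change 0.84, adjusted p = 9.73e-05) and fell with PE there (-0.82, adjusted p = 7.82e-05). The difference of its PE effects, -0.62 (adjusted p = 0.0048), was called. Ciart, a repressor whose product binds the CLOCK and BMAL1 pair, had group means of 4.34, 2.45, 6.2 and 4.53 CPM. It fell with PE in siNeg (-0.84, adjusted p = 0.00864) and was higher in siSlc25a26.PE than in siNeg.PE (0.88, adjusted p = 0.00225), as Nr1d1 was.

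Of 14 outputs, 13 were in the tables. For PE in siNeg 1 of 12 tested was called higher (Bdh1) and 3 lower (Tef, Klf10 and Kcnip2). For PE in siSlc25a26 1 of 13 was called higher and 5 lower, these 3 among them. For siSlc25a26 without PE 2 were higher (Nampt and Pik3r1) and 2 lower (Klf15 and Kcnip2), and under PE Nampt was higher and Klf15 lower. Over all genes tested, 12.4% were called higher and 8.24% lower for PE in siNeg, and 10.1% and 10.4% for PE in siSlc25a26. For siSlc25a26 these shares were 8.92% and 7.20% without PE, and 7.71% and 8.10% under PE. The median log2 fold change of the outputs was -0.06, -0.31, 0.13 and -0.22, against 0.0, -0.0, 0.01 and -0.0 over all genes tested.

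Tef encodes a factor of the same family as DBP. Its group means were 123 CPM in siNeg, 70.4 in siNeg.PE, 117 in siSlc25a26 and 56.3 in siSlc25a26.PE, and it fell with PE by 0.82 (adjusted p = 0.000183) and by 1.05 (adjusted p = 1.29e-05) on the log2 scale. Like Dbp, it was not called between siRNAs. Kcnip2, the subunit of the transient outward potassium channel whose level follows the clock in the heart, showed the widest change of the regulators and outputs described. It was 57.1, 77.9 and 53.4 CPM in siNeg, 9.35, 7.89 and 4.03 in siNeg.PE, 16.9, 23.1 and 25.6 in siSlc25a26, and 5.27, 3.3 and 3.29 in siSlc25a26.PE. It fell 8.93-fold with PE in siNeg (adjusted p = 6.9e-05) and 5.49-fold in siSlc25a26 (adjusted p = 1.87e-05), and was 2.93-fold lower in siSlc25a26 without PE (adjusted p = 0.000168). Bdh1, an enzyme of ketone body use, went the other way. Its means were 24.2 and 77.8 CPM in siNeg and siNeg.PE, and 21.6 and 63.2 in siSlc25a26 and siSlc25a26.PE, a rise with PE of 1.67 (adjusted p = 3.89e-06) and 1.55 (adjusted p = 4.91e-06) on the log2 scale.

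Nampt, the rate-limiting enzyme of NAD salvage, was called in the siRNA comparisons only. Its means were 33.2 CPM in siNeg and 85.7 in siSlc25a26 (log2 fold change 1.34, adjusted p = 3.69e-06), and 31.9 in siNeg.PE and 63.6 in siSlc25a26.PE (0.99, adjusted p = 1.73e-05). With PE it was also lower in siSlc25a26, inside 1.5-fold (-0.42, adjusted p = 0.00104), while in siNeg the value was -0.07 (adjusted p = 0.552). Klf15, a Krüppel-like factor that controls metabolic genes in heart muscle, was lower with the siRNA, at -0.63 without PE (adjusted p = 0.00223) and -0.76 under PE (adjusted p = 0.000262). Klf10, another Krüppel-like factor, fell with PE by 0.78 in siNeg (adjusted p = 0.000206) and by 0.65 in siSlc25a26 (adjusted p = 0.000242). With the siRNA it was higher, inside 1.5-fold, by 0.42 without PE (adjusted p = 0.00299) and by 0.54 under PE (adjusted p = 0.00154). Pik3r1, a regulatory subunit of PI3 kinase, was 43.9 CPM in siNeg, 65.1 in siNeg.PE, 76.5 in siSlc25a26 and 49.9 in siSlc25a26.PE. It was higher in siSlc25a26 than in siNeg (0.78, adjusted p = 0.000473) and fell with PE in siSlc25a26 (-0.61, adjusted p = 0.000992), while its value with PE in siNeg was 0.56 (adjusted p = 0.0154), and the difference of its PE effects was -1.18 (adjusted p = 0.00275).

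**Figure D4:**
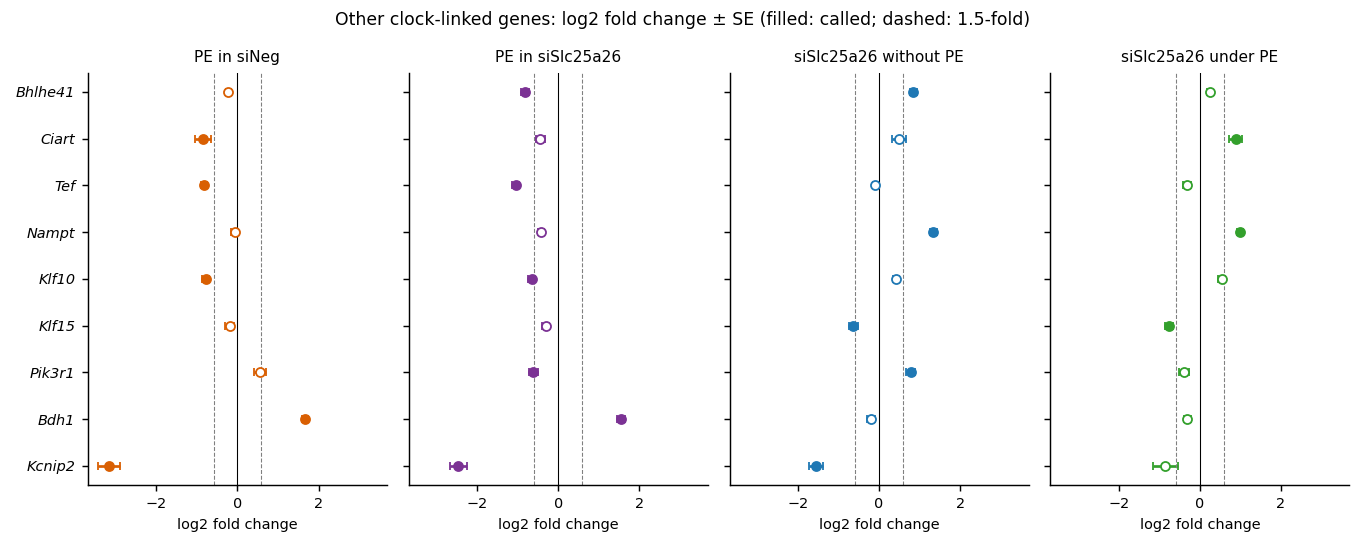
Log2 fold change ± SE of the 9 regulators and outputs described in each comparison, with filled points for called genes and dashed lines at 1.5-fold. Kcnip2 lies farthest left for PE in siNeg, at -3.16, and Nampt lies to the right only in the siRNA comparisons, at 1.34 and 0.99.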

How the data were processed

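RNA of cultured NRVMs was sequenced by BGI in 12 libraries, 3 in each of 4 groups taken from the labels. The labels give PE 12 h after transfection for 36 h, the paper other times, and the label times are used. The paper describes siNap1l5 libraries and names this series for its RNA-seq data. All 12 libraries here are labelled siNeg or siSlc25a26, with or without PE. The labels are followed, and no library labelled siNap1l5 was analysed. The authors deposited estimated counts per gene, about 21% of them not whole, which were rounded here, although the planned design had assumed plain counts. The authors also deposited FPKM values, scaled by gene length and library total. The submitters' processing notes name HISAT, Bowtie2 and Rnor_6.0; the counting program, annotation and strandedness are not given in the sources used here. Total counts per library were 24770972 to 28709049, and the floor of 3 counts covers counting error alone.

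The groups were compared in R 4.3.3 with edgeR 4.0.16 (TMM, filterByExpr, quasi-likelihood F-test, Benjamini-Hochberg adjustment over all tested genes). Only the compared groups entered each fit, and all 12 libraries the test of the difference. Standard errors came from the F statistic. CPM used TMM factors over all 12 libraries. The fold threshold was 1.5 and the adjusted p threshold 0.05, as in the study's methods. Other settings tried were limma-voom (limma 3.58.1) and DESeq2 1.42.0, edgeR with the size factors of DESeq2, limma on log2 FPKM with a pseudocount of 0.1 or 1, the tables unfiltered or with 10 counts required throughout, a fit with the replicate number as a term, 1 fit of all 12 libraries, the adjusted p alone, and single libraries left out. The procedure was tested on simulated data. Replicates of a group differed by more than sampling noise, with a chi-square per gene of 5.52 to 21.6.

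All 10 members were named. From the lists of regulators and outputs, the genes named are those called in at least 2 of the 4 pairwise comparisons with 10 or more counts in every library of their highest group, and for Arntl and Dbp the 3 most alike; 1 listed regulator is not reported here and is left out of the list's counts. The members and lists were chosen with earlier results of these data known. Gene identifiers were matched to RefSeq of GRCr8 (16962 of 18469, 91.8%), which was used for overlaps and upstream windows; 9 members had a window. These coordinates are of GRCr8, not of the build of the tables.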

Additional observations from a re-analysis of the deposited data

Results flagged for a closer look

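The effect of PE on Cry2 differed between the siRNAs by 0.35 on the log2 scale (SE 0.0868, adjusted p = 0.0235), a difference between groups inside 1.5-fold. Cry2 lay 0.33 lower with PE in siNeg, with no overlap between the groups, and 0.05 higher in siSlc25a26, where the groups overlapped. Over 8 other settings its adjusted p ran from 0.0042 to 0.077, and on leaving out single libraries from 0.016 to 0.059, over 0.05 without siNeg replicate 1 (0.0585), siNeg.PE replicate 3 (0.0555), siSlc25a26 replicate 2 (0.0575) or siSlc25a26.PE replicate 2 (0.059).

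The effect of PE on Nr1d1 differed by 0.37 (SE 0.0932, adjusted p = 0.0254), also inside 1.5-fold. The value was -0.66 in siNeg and -0.27 in siSlc25a26, with the PE libraries lower in both. Over 8 other settings its adjusted p ran from 0.00515 to 0.0749, and on leaving out single libraries from 0.0148 to 0.064, over 0.05 without siNeg.PE replicate 2 (0.064), siNeg.PE replicate 3 (0.0592), siSlc25a26 replicate 2 (0.0561) or siSlc25a26.PE replicate 2 (0.0543). For both genes the FPKM scalings gave an adjusted p over 0.05. Both differences use the libraries labelled siSlc25a26.PE, in which Slc25a26 was not lower.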

How the results depend on the processing

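Of 800 values of single members under the alternatives, 778 kept their direction and stayed called or not called. A value not called in the main fit counts as kept while it stays uncalled with the same sign, even where its adjusted p crosses 0.05. For Arntl under PE this adjusted p was over 0.05 in 3 of 6 fits that left out 1 library. The 778 thus does not measure how stable the uncalled values are. Without the fold threshold, the members past the adjusted p alone were 8 of 10 for PE in siNeg and 7 for PE in siSlc25a26. They were 5 for siSlc25a26 without PE, 6 under PE and 2 for the difference. Over all genes tested these counts were 6785 of 13719, 7219 of 13776, 6221 of 13829, 5488 of 13671 and 1581 of 14097. For siSlc25a26 without PE, 5 of 10 is close to the share over all genes. On log2(FPKM + 1), 3 were called for PE in siSlc25a26 and 1 for siSlc25a26 without PE; the cause was not tested. Leaving out single libraries gave 4 to 5 calls for PE in siNeg, 4 to 5 for PE in siSlc25a26, 1 to 2 without PE, 2 to 2 under PE and 0 to 1 for the difference. The sign reversed for Cry2 with PE in siSlc25a26 on both FPKM scalings (-0.12 and -0.13), and on leaving out single libraries for Cry1 with PE in siNeg (-0.04 to 0.1), Per2 without PE (-0.01 to 0.15), Cry1 under PE (-0.13 to 0.05) and Nr1d2 under PE (-0.19 to 0.09); none of these was called. Over all genes, the calls with the fold threshold were 2838, 2825, 2229, 2162 and 776, in the same order. On log2(FPKM + 1) they were 1590 for PE in siNeg, 1284 for siSlc25a26 without PE and 1379 under PE. With the FPKM scalings the median of all genes was -0.13 and -0.17 for PE in siSlc25a26, against -0.0 in the main fit. Of the calls, 27.4% and 27.1% were higher, against 49.2%. For the difference the median was -0.11 and -0.14, against -0.05, with 23.4% and 22.1% of calls higher against 39.3%. The cause was not tested. Same-numbered libraries deviated together in some pairs only (correlations of -0.104 to 0.282), so the numbers are not taken as pairs. With the replicate block the members called were 5, 5, 2, 2 and 0, as without it, and the calls over all genes 2969, 2710, 2151, 2195 and 945. Nr1d2 with PE in siNeg (adjusted p = 0.175) was at -0.33 with an adjusted p of 0.000288 under the replicate block, and at -0.52 with 0.0419 without siNeg.PE replicate 3, both inside 1.5-fold.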
